A study of Mus musculus with 16 samples.

Results

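Expression of 9 genes of cytokine signalling was followed across 5 populations of hematopoietic stem cells (HSCs) from mouse bone marrow. The genes were *Epor*, *Il6st*, *Il6ra*, *Il11ra1*, *Il3ra*, *Csf2rb*, *Csf2rb2*, *Jak2* and *Tek*, which encode erythropoietin, gp130-family and common-beta-chain receptors, a kinase bound to them and the angiopoietin receptor. They were taken by gene name from a table of counts, where they are 9 of 46078 genes, and each name stood on 1 line. Phenotypic HSCs were KIT and SCA1 positive, CD150 positive, CD48 negative and free of lineage markers, and were divided by their surface level of MAC-1, the integrin that contains CD11b (*Itgam*). Steady state (SS) HSCs came from untreated mice and were MAC-1- (3 samples) or MAC-1low (3 samples). The 4wk HSCs (4 week in the plots) were the progeny of 8000 transplanted LSK cells (the lineage negative, SCA1 and KIT positive fraction), sorted 4 weeks after recipients had received 900 cGy, and were MAC-1- (3 samples), MAC-1low (4 samples) or MAC-1+ (3 samples). Mice of all 5 groups were labelled B6.SJL and wild type (WT), with no altered allele in any group and no age given. No SS MAC-1+ group was analysed here, so the MAC-1+ gate and the transplantation cannot be told apart in comparisons with SS HSCs.

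Receptors of this family have no kinase of their own. A cytokine draws receptor chains together, the Janus kinases bound to them become active, and STAT factors that they phosphorylate carry the signal to the nucleus. Chains are shared: gp130, encoded by *Il6st*, transmits the signals of interleukin 6 and interleukin 11 once their own receptor chains have bound them, and the beta chain encoded by *Csf2rb* does so for interleukin 3, interleukin 5 and GM-CSF. The mouse carries a second beta chain gene, *Csf2rb2*, whose product works with the interleukin 3 receptor alone. JAK2 serves the erythropoietin receptor and the beta chains, and TIE2, the product of *Tek*, is a receptor tyrosine kinase that needs no Janus kinase and is known from endothelium and from quiescent HSCs.

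Both beta chain genes lie on mouse chromosome 15, on opposite strands, and their coding sequences are near copies of each other. In the GENCODE M21 annotation (GRCm38), *Csf2rb* spans 78325752 to 78353847 on the plus strand and *Csf2rb2* spans 78282507 to 78305721 on the minus strand. An alignment of 2626 coding bases held 122 mismatches, an identity of 95.4%. Of all stretches of 75 bases in the longest coding transcript of *Csf2rb*, 10.7% also occurred unchanged in *Csf2rb2*, and of stretches of 50 bases 18.4% did. Over aligned windows of 90 bases the number of differing bases ran from 0 to 16 with a median of 3. The first 90 bases of the coding sequence, with the median number of differences, and the first window with the most differences are given here as examples. They show how far the copies differ where they can be told apart. Windows with 0 differences, within which a read cannot be assigned to 1 copy, are not printed. Capitals mark the bases that differ between the copies, and all are read 5′ to 3′ on the coding strand.
Csf2rb, coding bases 1 to 90: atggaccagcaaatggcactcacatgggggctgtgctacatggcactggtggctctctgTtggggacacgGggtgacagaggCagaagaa
Csf2rb2, coding bases 1 to 90: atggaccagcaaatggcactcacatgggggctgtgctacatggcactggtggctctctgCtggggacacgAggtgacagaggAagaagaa
Csf2rb, coding bases 308 to 397: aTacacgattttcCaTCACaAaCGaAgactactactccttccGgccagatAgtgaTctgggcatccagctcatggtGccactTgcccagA
Csf2rb2, coding bases 311 to 400: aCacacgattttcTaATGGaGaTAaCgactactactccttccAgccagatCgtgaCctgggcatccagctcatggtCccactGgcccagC
The way reads that fit both copies were counted is not given in the sources used here, so the split between *Csf2rb* and *Csf2rb2* is uncertain and their sum is given as well. *Il11ra1* also has a near copy, *Il11ra2*, which shared 31.8% of the stretches of 75 bases. *Il11ra2* had 0 counts in all 16 samples.

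RNA was amplified from few cells with SMART-Seq, which copies whole transcripts and adds no molecular identifiers, and the values are whole numbers of reads per gene. Totals ran from 13781278 to 28580658 counts per sample, and 14533 to 17576 genes had at least 1 count. Samples of 1 population differed by much more than sampling noise: for a pair of replicates the chi-square per degree of freedom was 126 to 306. Of the 9682 genes with a mean of at least 100 counts, 20.8% were at 0 in 1 or more samples, and the common biological coefficient of variation was 1.13. Levels are given as CPM (counts of a gene relative to the library total, with TMM scaling), and a count of 0 in a sample allows up to 3 counts, or 0.112 to 0.220 CPM. *Itgam* had 96 to 478 counts in 4wk MAC-1+ samples and 0 to 95 in the others. All 10 HSC markers examined had counts in every population, with summed levels of 1507 to 1824 CPM in SS samples, 788 to 884 in 4wk MAC-1-, 1782 to 2358 in 4wk MAC-1low and 2628 to 3835 in 4wk MAC-1+. The 8 megakaryocyte markers summed to 4283 to 6748 CPM in 4wk MAC-1- samples, to 156 to 202 in 4wk MAC-1+ and to 322 to 1097 elsewhere. A library that stood apart was 4wk MAC-1+ replicate 3, with 7606 CPM over the 8 neutrophil markers (all 8 had counts in that population). The other samples of its group had 257 and 1135 CPM, and samples of the other populations had 89.8 to 395. Replicate 3 is left out in turn where it bears on a member, which keeps the sample at 1135 CPM.

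In each tested comparison, differences are log2 fold changes from edgeR's quasi-likelihood test on 13661 genes and all 16 samples, with Benjamini-Hochberg adjusted p over all genes, and a gene was called at an adjusted p below 0.1. The filter on low counts was passed by 8 of the 9 genes, not by *Il3ra*. Because the labels do not state whether replicates came from separate mice, these p-values measure the spread between the samples, which may in part be technical. In bulk RNA, fewer cells with a transcript and less of it per cell cannot be told apart.

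Per kilobase of exon, *Jak2* and *Tek* were the most abundant transcripts of the set and *Il3ra* was barely detected. The medians over the 16 samples were 14.3 CPM per kilobase for *Jak2*, 13.03 for *Tek*, 6.48 for *Il11ra1*, 1.50 for *Epor*, 1.07 for *Csf2rb2*, 0.921 for *Csf2rb*, 0.871 for *Il6st*, 0.441 for *Il6ra* and 0.0130 for *Il3ra*. Neighbours in this order were compared within samples by an exact permutation test of the log2 differences (two-sided sign flips), with p adjusted over the 8 pairs. *Tek* stood above *Il11ra1* in 14 of 16 samples (mean log2 difference 1.07, SD 1.57, adjusted exact permutation p = 0.0428) and *Il11ra1* above *Epor* in 12 (1.68, SD 2.02, adjusted p = 0.0182). *Il6ra* stood above *Il3ra* in 13 samples, but with *Il3ra* at or under the limit of a count of 0 in 11 of 16 samples the size of that step depends on the prior count, and no test of it is given. *Jak2* and *Tek* did not differ beyond their spread (*Jak2* higher in 9 samples, adjusted exact permutation p = 0.591), nor did any neighbours from *Epor* to *Il6ra* (adjusted p from 0.504 to 0.911). With the length of the longest transcript in place of all exons, the order of the first 4 genes was kept, and the next were *Csf2rb*, *Il6st* and *Csf2rb2*. The step from *Tek* to *Il11ra1* was then much smaller, with medians of 13.2 and 11.1 CPM per kilobase. It was not tested with that length, so the difference between these 2 genes depends on the length used.

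**Figure D1:**
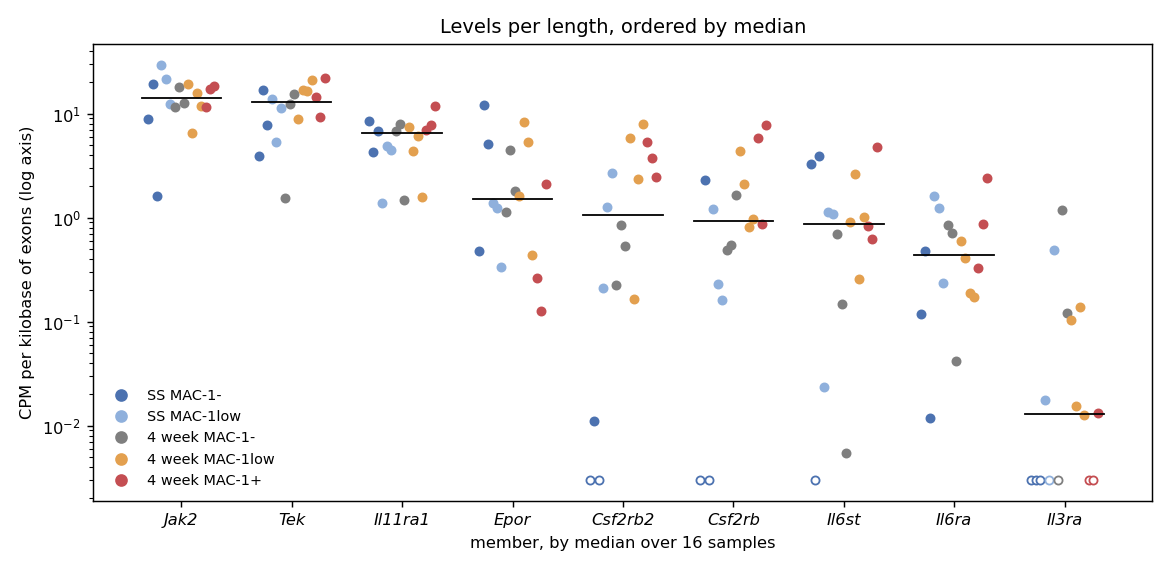
Levels of the 9 genes per kilobase of exon, in CPM per kilobase on a log axis, with 1 point per sample colored by population, a bar at the median of the 16 samples, and open circles at the bottom for samples with 0 counts. The medians fall from 14.3 for *Jak2* and 13.03 for *Tek* to 0.0130 for *Il3ra*, and the points of 1 gene spread over more than the distance between most neighbours.

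The beta chain gene *Csf2rb2* was the 1 member called across the 5 populations. It was nearly absent from SS MAC-1- HSCs and present in each sample of the other 4 populations. Counts were 0, 1 and 0 in SS MAC-1- samples, 19, 108 and 249 in SS MAC-1low, 17, 107 and 42 in 4wk MAC-1-, 450, 17, 216 and 1002 in 4wk MAC-1low, and 533, 280 and 293 in 4wk MAC-1+. As levels, the mean was 0.0175 CPM ± 0.0303 (SD, n = 3) in SS MAC-1- HSCs, 6.62 ± 5.95 (SD, n = 3) in SS MAC-1low, 2.55 ± 1.49 (SD, n = 3) in 4wk MAC-1-, 19.3 ± 16.4 (SD, n = 4) in 4wk MAC-1low and 18.2 ± 6.88 (SD, n = 3) in 4wk MAC-1+. All 13 samples outside SS MAC-1- lay above the limit that a count of 0 allows, from 0.781 to 37.5 CPM, and all 3 SS MAC-1- samples lay at or below it. A joint test over the 5 populations called *Csf2rb2* and 0 other members (adjusted p = 0.0762, edgeR), where 2.22% of all tested genes were called. DESeq2 called it too (adjusted p = 6.06e-06), where it called 13.7% of genes, and limma-voom did not (adjusted p = 0.145). In edgeR the joint call was kept in 3 of the 16 fits that each left out a sample, namely without SS MAC-1low replicate 1 or 3 or 4wk MAC-1low replicate 2, and lost in the other 13 (adjusted p up to 0.169).

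Against SS MAC-1- HSCs, *Csf2rb2* was higher in both MAC-1 bearing 4wk populations. With 1 count in the 3 SS MAC-1- samples together, the fitted log2 fold change depends on the prior count, and ratios of pooled CPM with exact intervals, which cover counting error only, are given in its place. The ratio was 928 for 4wk MAC-1+ HSCs (95% interval 166 to 36700; adjusted p = 0.0246, edgeR). *Csf2rb2* was the 1 member called there and stayed called with each sample left out in turn (*Csf2rb* was called beside it without SS MAC-1- replicate 2), where edgeR called 2.36% of genes, DESeq2 12.5% (adjusted p = 1.41e-07) and limma-voom 1.62% (adjusted p = 0.0777), and where 8.36% of genes had all samples of the first group above all of the second, as *Csf2rb2* did. For 4wk MAC-1low HSCs the ratio was 1040.0 (187 to 41300; adjusted p = 0.0741, edgeR), again the 1 member called and kept in 4 of 16 fits with a sample left out, against 0.19% of genes called by edgeR, 8.09% by DESeq2 (adjusted p = 5.7e-08) and 5.67% without overlap in that direction. limma-voom did not call it there (adjusted p = 0.157). Fitting each pair of groups alone also lost both calls (adjusted p = 0.193 for 4wk MAC-1+ and 0.293 for 4wk MAC-1low, edgeR). Both of these pairs were added after the data had been seen.

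The other comparisons with SS MAC-1- HSCs gave ratios of 348 for SS MAC-1low (62.1 to 13800) and 147 for 4wk MAC-1- (26.1 to 5850), again with no overlap between samples. Such a pattern was found for 5.95% and 9.24% of all genes. Neither passed in edgeR (adjusted p = 0.261 and 0.169), which called 0 members in these comparisons (*Csf2rb2* had an unadjusted p of 0.000401 and 0.00129) and 0.0146% and 0.432% of genes. DESeq2 called *Csf2rb2* in both (adjusted p = 2.42e-05 and 8.77e-04), beside 6.86% and 7.89% of genes. Comparisons that share the SS MAC-1- samples are not independent of each other, and all 4 rest on the same near absence in those samples.

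Among 4wk HSCs, *Csf2rb2* in each MAC-1+ sample (11.6 to 25.3 CPM) lay above each MAC-1- sample (1.07 to 4.06 CPM), a pattern shown by 10.2% of genes in that direction. The log2 fold change was 2.83 (SE 1.34) and did not pass in edgeR (adjusted p = 0.382), while DESeq2 called it (adjusted p = 0.0805). For 4wk MAC-1low against MAC-1- HSCs it was 2.91 (SE 1.31, adjusted p = 0.66, edgeR), with MAC-1low replicate 2 (0.781 CPM) below all MAC-1- samples. Between MAC-1+ and MAC-1low HSCs it was -0.08 (SE 1.17, adjusted p = 1, edgeR), near 0 and of the opposite sign with limma-voom (0.59). The interaction, or how far the MAC-1low against MAC-1- difference of 4wk HSCs departed from that of SS HSCs, was -5.15 (SE 1.90, adjusted p = 0.472, edgeR; 0.096 with DESeq2) and rests on the same SS MAC-1- samples.

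Reads of the common beta chain gene *Csf2rb* were uneven within populations. Levels were 0, 16.6 and 0 CPM in SS MAC-1- samples, 8.77, 1.68 and 1.19 in SS MAC-1low, 3.51, 3.98 and 12.02 in 4wk MAC-1-, 31.7, 15.5, 5.96 and 7.12 in 4wk MAC-1low, and 42.8, 6.28 and 56.0 in 4wk MAC-1+. SS MAC-1- replicate 2 held 316 counts of *Csf2rb* and 1 of *Csf2rb2*, while the other SS MAC-1- samples held 0 of each. The mean was 35.0 CPM ± 25.7 (SD, n = 3) in 4wk MAC-1+ and 6.50 ± 4.78 (SD, n = 3) in 4wk MAC-1- HSCs, and the groups overlapped. The log2 fold change was 2.43 (SE 1.82, adjusted p = 0.645, edgeR), and 1.93 without 4wk MAC-1+ replicate 3. In the joint test *Csf2rb* had an adjusted p of 0.764, and of 0.0849 without SS MAC-1- replicate 2 (edgeR).

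Within samples, the copies took very different shares of their joint reads. *Csf2rb2* held 10.2% (95% exact Clopper-Pearson interval 6.23 to 15.4), 78.3% (70.4 to 84.8) and 91.5% (87.6 to 94.6) in the SS MAC-1low samples and 37.1%, 73.7% and 17.2% in 4wk MAC-1+. It held 23.3%, 50.5% and 17.4% in 4wk MAC-1- samples, and from 4.8% (2.82 to 7.58) to 84.1% (81.9 to 86.1) in 4wk MAC-1low. The share was thus uneven among samples of 1 population, and these intervals cover counting error only, not the spread between replicates.

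**Figure D2:**
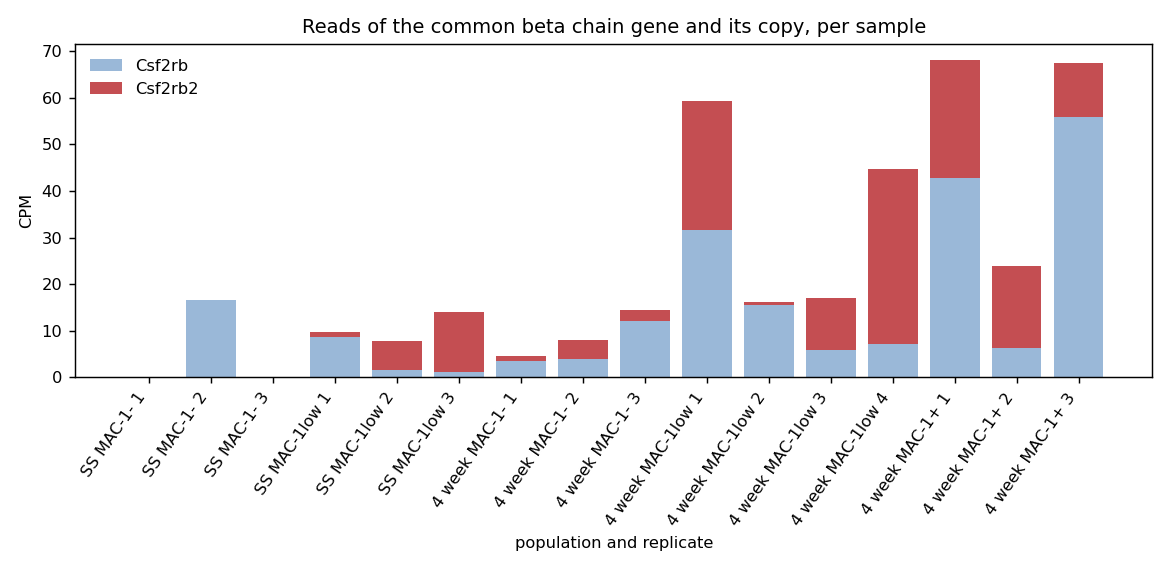
Reads of *Csf2rb* and *Csf2rb2* in each of the 16 samples as stacked bars, in CPM from 0 on a linear axis, grouped by population. Neither gene had a read in 2 of the 3 SS MAC-1- samples, and the summed bars of 4wk MAC-1+ samples reach 23.9 to 68.1 CPM while those of 4wk MAC-1- samples reach 4.58 to 14.6, with the division between the copies changing from sample to sample.

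Summed over both copies, levels were 5.54 CPM ± 9.59 (SD, n = 3) in SS MAC-1-, 10.5 ± 3.22 (SD, n = 3) in SS MAC-1low, 9.06 ± 5.06 (SD, n = 3) in 4wk MAC-1-, 34.3 ± 21.2 (SD, n = 4) in 4wk MAC-1low and 53.2 ± 25.4 (SD, n = 3) in 4wk MAC-1+ HSCs. No sample of 4wk MAC-1+ (23.9 to 68.1 CPM) overlapped with 4wk MAC-1- (4.58 to 14.6 CPM), as for 10.2% of single genes in that direction. The difference did not pass the test (log2 fold change 2.55, SE 1.58, adjusted p = 0.536, edgeR; 0.338 with DESeq2; 0.140 with limma-voom). Against SS MAC-1- HSCs the log2 fold change of the sum was 3.26 for 4wk MAC-1+ (SE 1.63), not called by edgeR (adjusted p = 0.385) or DESeq2 (0.16) and called by limma-voom (0.0892). For 4wk MAC-1low it was 2.63 (SE 1.54) and was called by none of the 3 (adjusted p = 0.571 with edgeR, 0.33 with DESeq2 and 0.191 with limma-voom). These values turned on SS MAC-1- replicate 2, the library with 316 reads of *Csf2rb*. Without it, the remaining SS MAC-1- samples held 0 reads of either copy, and edgeR called the sum in the joint test (adjusted p = 0.0114) and in 4wk MAC-1+ (0.00583), 4wk MAC-1low (0.00885), 4wk MAC-1- (0.0139) and SS MAC-1low HSCs (0.0248) against SS MAC-1-, and in the interaction (0.0983). With any other sample left out it called the sum in 0 comparisons.

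*Il3ra*, the chain that binds interleukin 3, was at or near 0. No SS MAC-1- sample had a read, and 7 of the 16 samples had 0 counts. A further 4 held no more than 3 counts, the limit that a count of 0 allows. The highest levels were 3.49 CPM (92 counts) in 4wk MAC-1- replicate 2 and 1.44 CPM (28 counts) in SS MAC-1low replicate 3. In 4wk MAC-1+ HSCs, where the beta chains were read in each sample, *Il3ra* had 0, 0 and 1 counts. edgeR's filter left *Il3ra* out. DESeq2 gave it an adjusted p from 0.117 to 0.952 over the pairs of populations and 0.273 in the joint test, and called it in 0 of them. Differences below the limit were not detectable at this depth.

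*Epor*, the erythropoietin receptor gene (chromosome 9, 21958897 to 21963506), was detected in each sample and varied widely within populations. Levels were 0.954, 24.2 and 10.2 CPM in SS MAC-1- samples, 2.77, 2.46 and 0.670 in SS MAC-1low, 2.26, 8.87 and 3.62 in 4wk MAC-1-, 3.19, 16.5, 10.6 and 0.862 in 4wk MAC-1low, and 0.522, 0.251 and 4.19 in 4wk MAC-1+. The lowest levels were thus those of 4wk MAC-1+ replicates 1 and 2, and replicate 3, the library with the many neutrophil transcripts, was the highest of its group. Means ran from 1.66 CPM ± 2.20 (SD, n = 3) in 4wk MAC-1+ to 11.8 ± 11.7 (SD, n = 3) in SS MAC-1- HSCs. The log2 fold change of 4wk MAC-1+ was -1.56 against 4wk MAC-1- (SE 1.49, adjusted p = 0.755, edgeR) and -2.23 against 4wk MAC-1low HSCs (SE 1.46, adjusted p = 0.864, edgeR). Without 4wk MAC-1+ replicate 3 the first of these was -3.61 (adjusted p = 0.463, edgeR). Of the erythroid markers read beside it, *Gata1*, a transcription factor of erythroid and megakaryocytic cells, had 0 counts in the 3 4wk MAC-1+ samples and 418, 1340 and 690 in 4wk MAC-1-. The 9 erythroid markers summed to 1808 to 2265 and 1872 to 2087 CPM in the same groups and to 1340 to 2767 over all samples. Their part in the *Epor* values was not tested.

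Of the gp130 group, *Il6st* (chromosome 13, 112464070 to 112510086), the chain that transmits the signal, had the widest range in CPM. It had 36.7, 0 and 43.4 CPM in SS MAC-1- samples, 0.261, 12.5 and 12.1 in SS MAC-1low, 7.72, 1.63 and 0.0604 in 4wk MAC-1-, 10.1, 29.1, 2.83 and 11.1 in 4wk MAC-1low, and 9.21, 6.97 and 53.5 in 4wk MAC-1+. SS MAC-1- HSCs thus held samples at 500 and 847 counts beside 1 with none. The mean was lowest in 4wk MAC-1- (3.14 CPM ± 4.05, SD, n = 3) and highest in SS MAC-1- (26.7 ± 23.4, SD, n = 3), with a log2 fold change of -3.09 between them (SE 1.92, adjusted p = 0.597, edgeR). For 4wk MAC-1+ against MAC-1- HSCs it was 2.89 (SE 1.91, adjusted p = 0.572, edgeR), and 1.41 without 4wk MAC-1+ replicate 3 (adjusted p = 0.851, edgeR).

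*Il6ra* (chromosome 3, 89864059 to 89913196), which binds interleukin 6, was low in SS MAC-1- samples (1.03, 4.09 and 0.103 CPM). It had 13.9, 10.7 and 2.01 CPM in SS MAC-1low, 7.34, 6.22 and 0.362 in 4wk MAC-1-, 5.15, 3.54, 1.65 and 1.50 in 4wk MAC-1low, and 2.85, 7.47 and 20.8 in 4wk MAC-1+ samples. The highest mean, 10.4 CPM ± 9.30 (SD, n = 3) in 4wk MAC-1+, was 5.16 without replicate 3. The log2 fold change of SS MAC-1low against SS MAC-1- HSCs was 2.35 (SE 1.50, adjusted p = 0.671, edgeR), with overlapping samples. For 4wk MAC-1+ against MAC-1- HSCs it was 1.16 (SE 1.44, adjusted p = 0.84, edgeR), and 0.20 without replicate 3 (adjusted p = 0.998, edgeR).

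*Il11ra1* (chromosome 4, 41699989 to 41769474), the interleukin 11 receptor chain, was the steadiest receptor of the gp130 group and had at least 110 counts in each sample. Levels were 37.6, 19.1 and 30.8 CPM in SS MAC-1- samples, 6.16, 21.9 and 20.01 in SS MAC-1low, 30.8, 35.8 and 6.64 in 4wk MAC-1-, 33.6, 19.7, 27.1 and 7.12 in 4wk MAC-1low, and 30.9, 34.9 and 52.6 in 4wk MAC-1+. Each 4wk MAC-1+ sample lay above each SS MAC-1low sample, as for 7.71% of genes in that direction, and the difference did not pass (log2 fold change 1.30, SE 0.74, adjusted p = 0.507, edgeR). Against 4wk MAC-1- HSCs the log2 fold change was 0.69 (SE 0.73, adjusted p = 0.792, edgeR), with means of 39.5 CPM ± 11.6 (SD, n = 3) and 24.4 ± 15.6 (SD, n = 3). The tagwise biological coefficient of variation was 0.651 for *Il11ra1*, 1.12 for *Il6ra* and 1.37 for *Il6st*.

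*Jak2* (chromosome 19, 29251828 to 29313080), the kinase shared by the erythropoietin and beta chain receptors, was read in each sample at 159 to 2844 counts. It had 45.0, 97.5 and 8.15 CPM in SS MAC-1- samples, 148, 107 and 61.8 in SS MAC-1low, 58.4, 89.8 and 63.5 in 4wk MAC-1-, 96.7, 32.6, 80.1 and 59.7 in 4wk MAC-1low, and 58.4, 86.4 and 93.1 in 4wk MAC-1+. The 4wk populations had means of 70.6 CPM ± 16.9 (SD, n = 3), 67.3 ± 27.6 (SD, n = 4) and 79.3 ± 18.4 (SD, n = 3). Log2 fold changes among them ran from -0.07 (SE 0.59) to 0.24 (SE 0.59), while SS MAC-1low against SS MAC-1- HSCs gave 1.07 (SE 0.64, adjusted p = 0.637, edgeR). Its coefficient of variation of 0.557 was the smallest of the 8 tested members.

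*Tek* (chromosome 4, 94739289 to 94874976) was read at 115 to 2639 counts. Levels were 18.5, 78.9 and 36.8 CPM in SS MAC-1- samples, 64.5, 24.9 and 53.8 in SS MAC-1low, 7.22, 58.3 and 72.7 in 4wk MAC-1-, 41.6, 78.9, 77.4 and 98.9 in 4wk MAC-1low, and 68.6, 44.2 and 104.0 in 4wk MAC-1+. Each pair of populations overlapped. The log2 fold change against 4wk MAC-1- HSCs was 0.65 for MAC-1+ (SE 0.71, adjusted p = 0.801, edgeR) and 0.69 for MAC-1low (SE 0.67, adjusted p = 1, edgeR). Since *Tek* is also an endothelial transcript, 8 endothelial markers were read beside it, which summed to 115 to 159 CPM in SS MAC-1- samples, 24.1 to 57.6 in SS MAC-1low, 5.80 to 47.3 in 4wk MAC-1-, 45.8 to 116 in 4wk MAC-1low and 58.2 to 81.9 in 4wk MAC-1+. Between 4 and 7 of the 8 had a count in a population. *Emcn*, which encodes endomucin and is also known from HSCs, had 96 to 3096 counts in each sample and *Kdr* up to 259. *Cdh5*, the endothelial cadherin, had at most 4 counts in 15 samples and 150 in 4wk MAC-1low replicate 2, *Lyve1* had at most 1 count in any sample, and *Cldn5* was at 0 in the 10 4wk samples and reached 131 counts in SS MAC-1low replicate 1. *Flt4* and *Stab2* had counts in every population, and *Plvap* in all but SS MAC-1- and 4wk MAC-1+. The part of the endothelial markers in the *Tek* values was not tested. *Tek* in the 2 4wk MAC-1+ samples besides replicate 3 averaged 56.4 CPM.

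**Figure D3:**
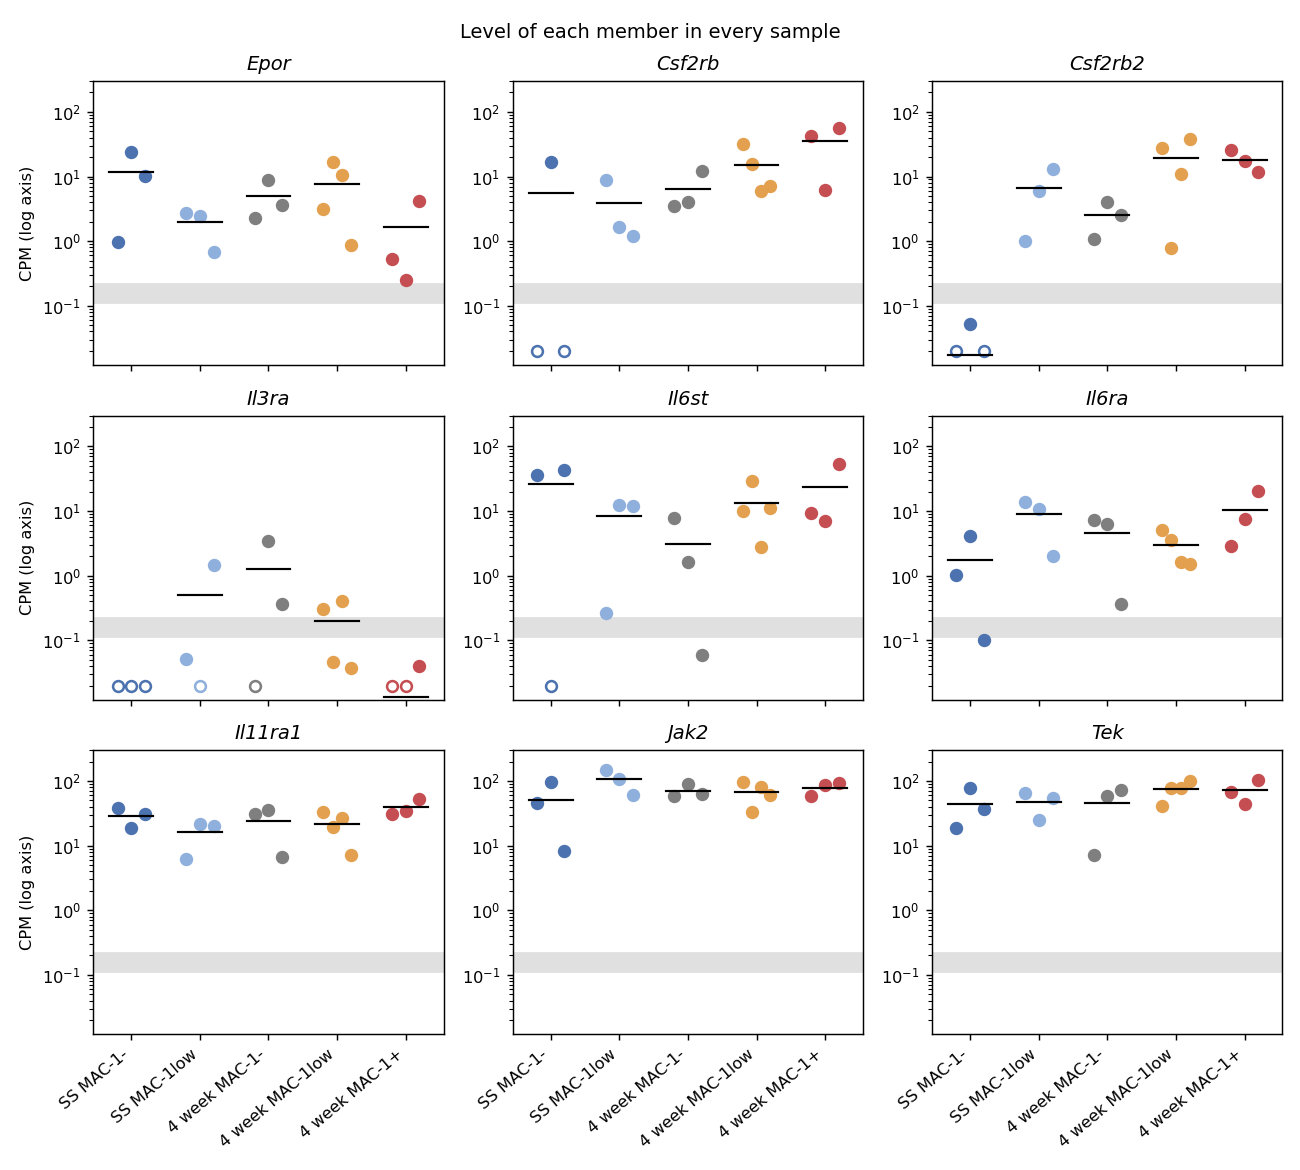
Levels of the 9 genes in the 16 samples, 1 panel per gene, in CPM on a log axis, with 1 point per sample, a bar at the mean of each population, open circles at the bottom for 0 counts and a grey band for the limit that a count of 0 allows (0.112 to 0.220 CPM). *Csf2rb2* is at or below the band in the 3 SS MAC-1- samples and above it in the other 13, *Il3ra* is at or below it in 11 of 16 samples, and the remaining genes spread widely within populations.

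The library 4wk MAC-1+ replicate 3 had the highest CPM of all 16 samples for *Il6st*, *Il6ra*, *Il11ra1*, *Csf2rb* and *Tek*, 5 of the 9 genes. Summed over the 9 genes it had 396 CPM, against 118 to 250.0 in the others. Without it, the means of 4wk MAC-1+ HSCs became 8.09 CPM for *Il6st*, 32.9 for *Il11ra1*, 24.6 for *Csf2rb*, 21.4 for *Csf2rb2* and 72.4 for *Jak2*. The neutrophil transcripts *S100a8* and *S100a9* had 98876 and 40044 counts in this library and 1987 and 849 or 7403 and 3300 in the others of its group. The part of neutrophil RNA in these values was not tested.

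Between 4wk MAC-1+ and MAC-1- HSCs, the comparison in which MAC-1 varies most after transplantation, 7 of the 8 tested members had a positive and 1, *Epor*, a negative log2 fold change. edgeR called 0 of them, with 0 at an unadjusted p below 0.05, where it called 3.25% of all genes, and DESeq2 called *Csf2rb2*, where it called 11.3%. The median over the members was 0.93, beside 0.07 over all tested genes, and 0.39 without 4wk MAC-1+ replicate 3. Between 4wk MAC-1low and MAC-1- HSCs edgeR called 0 members (1 at an unadjusted p below 0.05, *Csf2rb2*) and 0.278% of genes, and DESeq2 0 members (adjusted p = 0.1 for *Csf2rb2*, rounded and not below the threshold) and 4.13% of genes. Between 4wk MAC-1+ and MAC-1low HSCs edgeR called 0 members (0 at an unadjusted p below 0.05) and 0% of genes (936 genes at an unadjusted p below 0.05), and DESeq2 0 members and 3.09% of genes. Along the MAC-1 axis after transplantation, then, no member passed the edgeR test.

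SS and 4wk HSCs were also compared within a MAC-1 gate. For MAC-1low HSCs, 4wk against SS, edgeR called 0 of the 8 members (0 at an unadjusted p below 0.05) and 0.0439% of genes, and DESeq2 0 members and 4.71%. *Epor* had a log2 fold change of 1.98 (SE 1.45, adjusted p = 0.782, edgeR), *Csf2rb* of 1.96 (SE 1.73, adjusted p = 0.863) and *Il6ra* of -1.58 (SE 1.33, adjusted p = 0.844). None of the 3 differed beyond the spread between replicates. The interaction called 0 members in edgeR, with 1 at an unadjusted p below 0.05 (*Csf2rb2*), and 0.0586% of genes, and 1 member in DESeq2 (*Csf2rb2*), which called 5.38%. Of the remaining pairs, also added after the data had been seen, 4wk MAC-1+ against SS MAC-1low gave 0 members in edgeR (0 at an unadjusted p below 0.05), where 1.42% of genes were called, and 0 in DESeq2, where 9.55% were. 4wk MAC-1- against SS MAC-1low gave 0 members in edgeR (0 at an unadjusted p below 0.05; 0.505% of genes) and 0 in DESeq2 (6.87% of genes). Standard errors of the members ran from 0.59 to 1.92 over the 10 pairs of populations, so that a change of 1 log2 unit in a member was within about 2 standard errors.

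**Figure D4:**
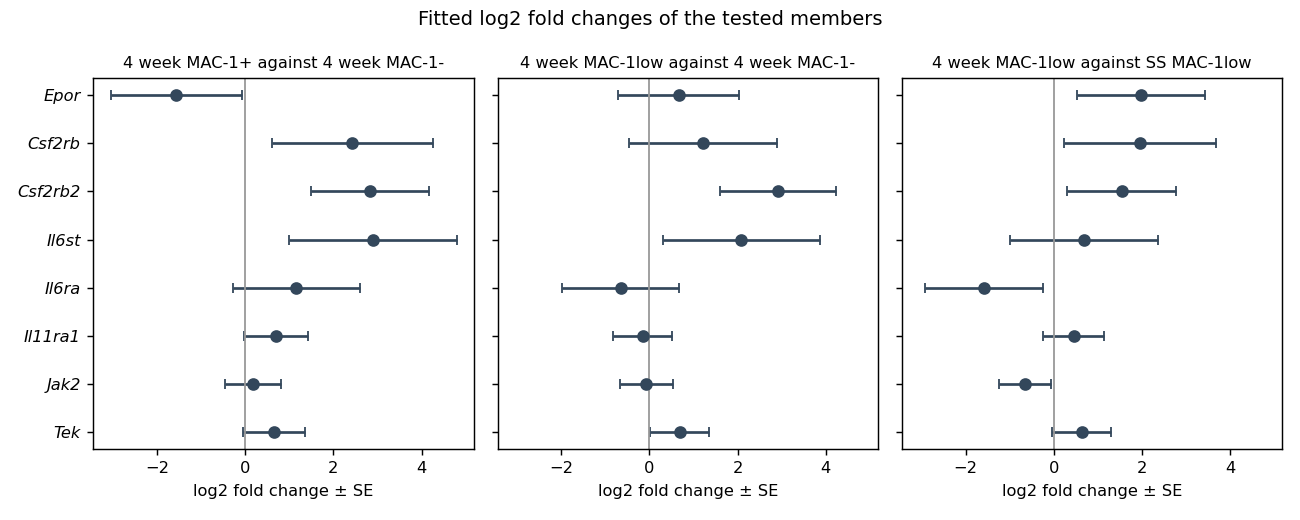
Log2 fold changes of the 8 tested members, with bars of 1 standard error, in 4wk MAC-1+ against 4wk MAC-1-, 4wk MAC-1low against 4wk MAC-1- and 4wk MAC-1low against SS MAC-1low HSCs, from edgeR. Values in the first comparison run from -1.56 for *Epor* to 2.89 for *Il6st*, and none of the adjusted p values is below 0.1.

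The rest of the pathway was read from a list of 69 gene names, of which 68 were in the table and 50 passed the filter. The name not found, *Lnk*, is another symbol of *Sh2b3*, which was on the list and in the table. Between 4wk MAC-1+ and MAC-1- HSCs, 2 of the 50 rose and 0 fell, where 3.25% of all genes were called, so that the count is near the background: *Socs2*, a feedback inhibitor of cytokine receptor signalling which the study had chosen on these samples as an HSC signature gene, and *Ptprc*, the CD45 phosphatase, which acts on Janus kinases. *Socs2* had 405, 227 and 306 CPM in 4wk MAC-1+ samples and 97.8, 79.6 and 76.4 in 4wk MAC-1- (log2 fold change 1.88, SE 0.42, adjusted p = 0.0292, edgeR). In 4wk MAC-1low samples it lay between, at 168 to 261 CPM, and in SS samples it was at 29.3 to 117. *Ptprc* had 1042.6, 719 and 1016 CPM in 4wk MAC-1+ and 544, 294 and 254 in 4wk MAC-1- samples (log2 fold change 1.35, SE 0.28, adjusted p = 0.021, edgeR). Both were also called against SS MAC-1low HSCs (adjusted p = 0.0664 for *Socs2* and 0.0387 for *Ptprc*, edgeR; 1.42% of all genes) and in the joint test (0.0385 and 0.0394; 2.22% of all genes). Against SS MAC-1- HSCs, where 2.36% of all genes were called, the calls were *Socs2* (log2 fold change 1.76, adjusted p = 0.0595, edgeR) and *Jak1* (1.08, adjusted p = 0.0595, edgeR). *Jak1*, which encodes a kinase that gp130 uses, had 739, 607 and 486 CPM in 4wk MAC-1+ and 216.5, 305 and 345.5 in SS MAC-1- samples. In the other comparisons of populations edgeR called 0 of the 50 genes.

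By role, the 7 STAT genes had log2 fold changes from 0.35 (*Stat5a*) to 1.34 (*Stat2*) in 4wk MAC-1+ against MAC-1- HSCs, and 0 of 7 passed. Their median was 0.84, that of the 3 other Janus kinases 0.82 and that of the 20 tested negative regulators 0.80, beside 0.07 over all genes. Mean CPM of *Jak1* (611 and 347) and *Jak3* (3.18 and 1.08) was higher in 4wk MAC-1+ than in 4wk MAC-1- HSCs, and that of *Tyk2* (5.12 and 9.95) was lower. These medians were not recomputed without 4wk MAC-1+ replicate 3. Of 13 gp130 family receptors and ligands 5 could be tested, with a median of -2.87 and 0 calls, and of 12 other receptors, with the common gamma chain, 9 could, with a median of 0.85 and 0 calls. Of the 6 genes of the angiopoietin system 4 could be tested, with a median of 0.25 and 0 calls. *Csf2ra*, the GM-CSF receptor chain that pairs with the common beta chain, had 172, 160 and 139 counts in 4wk MAC-1+ and 271, 232 and 220 in 4wk MAC-1- samples. In CPM, which allows for depth, the groups overlapped (5.50 to 10.05 and 8.79 to 17.0). The sign was opposite to both beta chain genes, and the difference did not pass (log2 fold change -0.72, SE 1.10, adjusted p = 0.886, edgeR). *Csf3r*, the G-CSF receptor gene, had a log2 fold change of 1.51 (SE 1.28, adjusted p = 0.704, edgeR).

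The members did not follow 1 shared pattern across the 16 samples. Over the 36 pairs of members the Pearson r of log2 CPM was highest for *Il6ra* and *Jak2* (0.751) and lowest for *Epor* and *Csf2rb2* (-0.484), and *Csf2rb* and *Csf2rb2* had an r of 0.571. Among 9671 genes with a mean of at least 100 counts, the most similar were *Mboat2* to *Epor* (r = 0.797), *Malt1* to *Il6st* (0.858), *Dhrs11* to *Il6ra* (0.827), *Ing1* to *Il11ra1* (0.758), *Myl10* to *Csf2rb* (0.886), *Dzip1* to *Csf2rb2* (0.875), *2810002D19Rik* to *Jak2* (0.904) and *Nsun6* to *Tek* (0.872). These values describe 16 samples that share a library method and differ in depth, and the genes named are the most similar out of all candidates.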

How the data were processed

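Bulk RNA-seq of 16 samples in 5 HSC populations was analysed, each sample mapped by its label. The authors deposited a single table of counts, whole numbers of reads per gene that had not been normalized, after alignment with STAR in an nf-core pipeline. The counter, strand setting, build and annotation were not given in the sources used here. Without strand, reads of a gene and of an overlapping antisense gene cannot be told apart. PCR copies are counted as reads, so intervals and floors (3 counts per sample) cover counting error only. Positions, lengths and sequences came from GENCODE M21 (GRCm38), in which 98.0% of identifiers were found. Totals per sample were 13781278 to 28580658.

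In R 4.3.3, edgeR 4.0.16 was used with TMM factors, its default filter on low counts (13661 genes kept) and a robust quasi-likelihood fit with a mean per population. Log2 CPM used a prior count of 2. The alternatives were DESeq2 1.42.0, limma-voom (limma 3.58.1) with sample weights, DESeq2's size factors, other filters and thresholds, thinned counts, only the groups compared, the replicate number as a block, summed copies and leaving out each sample. The tests were first run on simulated counts of 4wk MAC-1+ against MAC-1- HSCs, in which DESeq2 made many false calls, unlike edgeR and limma-voom, and edgeR missed many of the changes. Those counts were drawn from a negative binomial distribution with the dispersions that edgeR had estimated. The simulation thus favours edgeR and cannot show which test is the more accurate on the real counts. Named genes were the 9 members, called genes of a fixed pathway list and, for each of the 8 tested members, the gene most similar in pattern. *Csf2ra*, *Csf3r*, *Stat2*, *Stat5a*, *Ctf1*, *Osm*, *Lifr*, *Il27ra*, *Ebi3*, *Jak3*, *Tyk2* and single markers were named after their values were seen. Members, lists and marker sets (HSC, megakaryocyte, erythroid, neutrophil, endothelial) were chosen with earlier results of these data known. Of the pairs of populations, 4 were added after the data had been seen. For the block, 12 pairs of samples with the same number were checked, and in 0 of them did deviations from the group means correlate above 0.1.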

Additional observations from a re-analysis of the deposited data

How the results depend on the processing

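Of 29 log2 fold changes recomputed under each alternative, 2 close to 0 and not called turned sign: *Csf2rb2* in 4wk MAC-1+ against MAC-1low HSCs, from -0.08 to 0.59 with limma-voom and 0.43 with the replicate block (-0.48 to 0.46 with a sample left out), and *Jak2* in 4wk MAC-1low against MAC-1- HSCs, from -0.07 to 0.064 with the replicate block (-0.30 to 0.18 with a sample left out). Over all 88 pairs of a tested member and a comparison, limma-voom gave the opposite sign to edgeR in 7, none of them called, and DESeq2 in 0. With DESeq2 the members called rose from 0 to 1 (*Csf2rb2*) in 4wk MAC-1+ against 4wk MAC-1-, SS MAC-1low against SS MAC-1- and 4wk MAC-1- against SS MAC-1- HSCs and in the interaction. From 1, they fell to 0 in the joint test and in 4wk MAC-1low against SS MAC-1- with limma-voom, with the replicate block and at an adjusted p below 0.05. They fell to 0 in these and in 4wk MAC-1+ against SS MAC-1- with *Csf2rb* and *Csf2rb2* summed, and in both comparisons with SS MAC-1- HSCs with only the groups compared. Without SS MAC-1- replicate 2 the sum was called in all 3 (adjusted p = 0.0114, 0.00885 and 0.00583, edgeR). With the replicate block *Csf2rb2* had an adjusted p of 0.221 in the joint test and 0.296 in 4wk MAC-1low against SS MAC-1- HSCs (edgeR), and the block changed no other call of a member. In the check of pairing, deviations of same-numbered samples correlated from -0.00109 to 0.0397 over 12 pairs. In libraries this variable, low correlations cannot show whether samples shared mice, and the block used the replicate number alone. The causes of the gained and lost calls were not tested.

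Leaving out each of the 16 samples gave 0 to 1 members in the joint test (adjusted p of *Csf2rb2* from 0.0404 to 0.169) and in 4wk MAC-1low against SS MAC-1- HSCs (0.0339 to 0.201). *Csf2rb2* was still called in the joint test in 3 of 16 such fits, without SS MAC-1low replicate 1 or 3 or 4wk MAC-1low replicate 2, and in the second comparison in 4 of 16, without SS MAC-1low replicate 1, 4wk MAC-1- replicate 2, 4wk MAC-1low replicate 2 or 4wk MAC-1+ replicate 1. In 4wk MAC-1+ against SS MAC-1- HSCs it was called in 16 of 16 (0.0118 to 0.0831), with 1 to 2 members in all, the further member being *Csf2rb* without SS MAC-1- replicate 2. Over all genes, 4wk MAC-1+ against MAC-1- HSCs gave 444 calls in edgeR, 1591 in DESeq2, 891 in limma-voom, 259 at an adjusted p below 0.05 and 154 with only the groups compared, and the joint test gave 303, 1879 with DESeq2, 177 with the replicate block and 2420 without the filter on low counts. Per kilobase of the longest transcript, the median of *Il11ra1* was 11.1 CPM, beside 6.48 over all exons. Low counts limit *Il3ra*, 7 of whose 16 values were 0.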
